A study of Drosophila melanogaster with 5 samples.

Results

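The locus described here is that of ocelliless (oc, also called orthodenticle), a homeobox gene on the X chromosome of Drosophila melanogaster. Its members are the open-chromatin peaks whose midpoint lies in a window of 90 kb placed around oc on the dm3 genome build, in which the first peak starts at position 8500234 and the last ends at position 8576074. The rule finds 20 of the 10000 peaks deposited for sorted midline cells and 12 of the 10000 peaks deposited for whole embryos. That is 32 of 20000 peaks in all.

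Ocelliless is a homeodomain transcription factor of the Otx family. It patterns the head of the early embryo, is needed for the ocelli (the simple eyes that give the gene its name), and is expressed in cells of the ventral midline of the central nervous system. Genes of this kind are controlled by enhancers, short stretches of DNA on which transcription factors displace nucleosomes. FAIRE-seq recovers such stretches, promoters included: chromatin is crosslinked, sheared and extracted with phenol, and the DNA left free of nucleosomes is sequenced.

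The midline libraries came from embryos 6 to 8 hours after egg laying of the strain sim3.7-Gal4 UAS-mCD8::GFP. In it a Gal4 driver named for single-minded, the gene that specifies the midline lineage, marks the cells with a membrane GFP used for sorting (2 replicates, fixed for 5 minutes after sorting). The whole-embryo libraries came from OregonR embryos of the same age (2 replicates, fixed for 10 minutes before homogenization). Chromatin of both groups was sheared to 500 bp to 2 kb. Peaks are counted as deposited, and those less than 500 bp apart may not be separate sites. Genomic DNA of adult virgin females of the strain y;cn,bw,sp served as input (1 library), and no values of it were used here. Strain, sorting, fixation and cell type therefore change together between the groups and cannot be told apart. Whole embryos contain midline cells as well, so the comparison sets a part against the whole. A midline-only peak is one absent from the deposited embryo list, and an embryo peak may come from any cells, the midline included. The authors pooled the replicates of each group before calling peaks, so the lists give no spread between replicates, the read depth is unknown, and every comparison below is a description without a test. The lists hold no expression values, so the identity of the sorted cells could not be checked against marker genes.

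Most midline peaks of the locus were absent from the whole-embryo list, while most embryo peaks of the locus were present in the midline list. Shared peaks are those with an overlap of 1 bp or more between the lists. Of the 20 midline peaks, 12 were midline-only (60.0%, 95% Clopper-Pearson interval 36.1 to 80.9%), against 494 of 1547 midline peaks on the rest of the X, for which the background was 31.9% (29.6 to 34.3%). Of the 12 embryo peaks, 4 were embryo-only (33.3%, 9.92 to 65.1%), against 903 of 1890 on the rest of the X, a background of 47.8% (45.5 to 50.1%). The midline interval of the locus starts just above that of the rest of the X, and the embryo intervals overlap. The separation is lost under a reciprocal overlap of 50% (40.8 to 84.6%, against 48% on the rest of the X) and among midline peaks ranked in the upper 5000 (10.9 to 69.2%, against 14.0%). These intervals treat peaks as independent and cover counting error only. Over the whole lists, 39.1% of midline peaks were midline-only, which the interval of the locus includes, and 43.4% of embryo peaks were embryo-only.

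**Figure D1:**
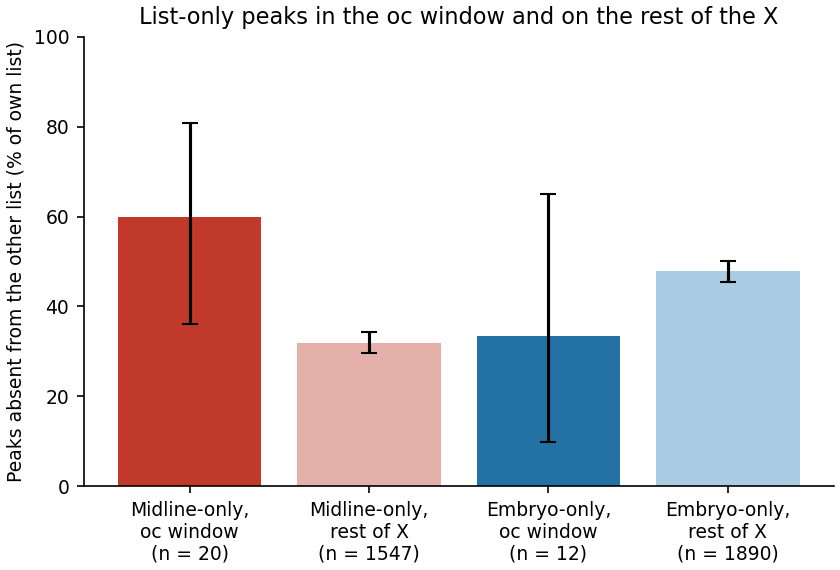
Percent of the peaks of each list that are absent from the other list, in the oc window and on the rest of the X. Bars are shares, error bars are 95% Clopper-Pearson intervals, and n is the number of peaks; the midline-only share is 60.0% in the window and 31.9% on the rest of the X, the embryo-only share 33.3% and 47.8%.

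The open sequence followed the same pattern. Midline peaks covered 6872 bp (7.64% of the window) and embryo peaks 4422 bp (4.91%), a ratio of 1.55. On the rest of the X this ratio was 0.685, since embryo peaks there are more numerous and wider. The peaks of both lists had 2992 bp in common in the window, which is 43.5% of the open midline sequence and 67.7% of the open embryo sequence. On the rest of the X these shares were 69.5 and 47.6%, the reverse order.

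The peaks lay in several groups along the window. A first group, at chrX:8500234-8505543, held 2 shared peaks and 3 midline-only peaks. Then came the shared peak at chrX:8518871-8519285 with a midline-only peak on its left, and a group dominated by midline-only peaks that ended in the shared peak at chrX:8534640-8535144. The highest peak of the window in both lists stood alone at chrX:8544518-8545309 in the midline list. To its right lay shared peaks, the remaining 3 midline-only peaks and a run of 3 embryo-only peaks.

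**Figure D2:**
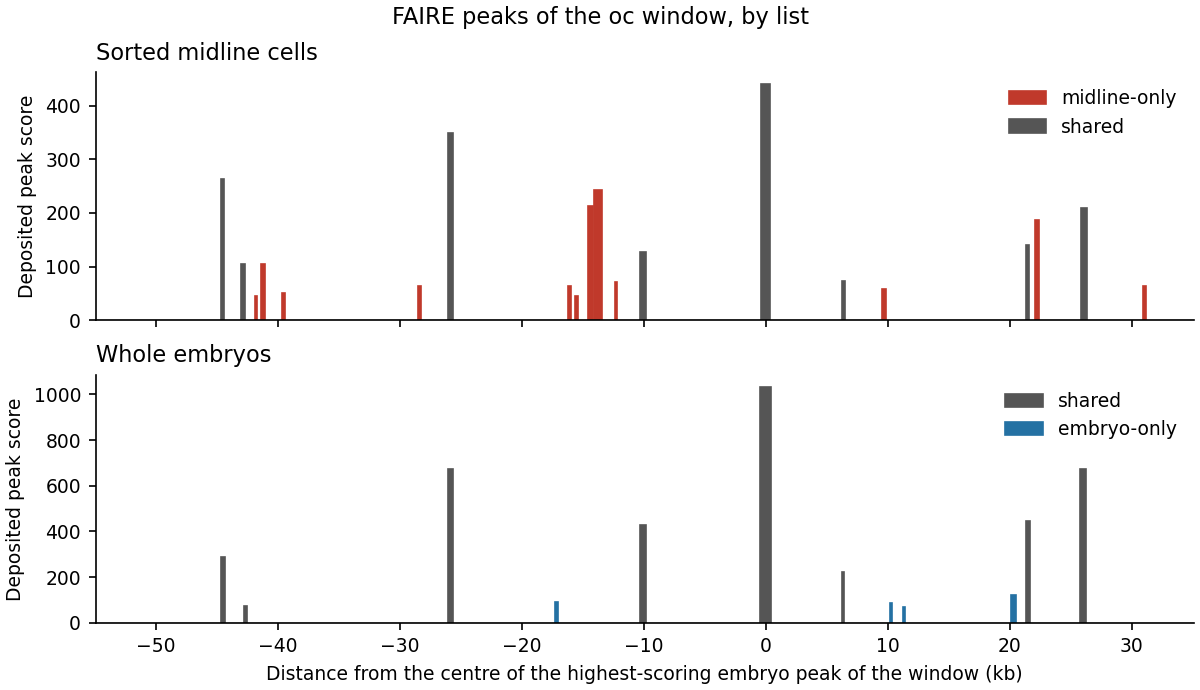
Peaks of the oc window in sorted midline cells (upper panel) and whole embryos (lower panel). The horizontal axis is the distance in kb from the centre of the highest-scoring embryo peak, the bar width is the peak width, and the bar height is the authors' score, on an axis of its own for each list; the midline-only peaks include runs of 4 and 5 left of the highest peak, and embryo-only peaks (4) are all low.

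The shared peaks included the strongest of the locus. The score is the authors' own value per peak, and it is used here only within a list, with rank 1 for the highest score. The highest peak of the window had a score of 440 and rank 296 among midline peaks, and a score of 1034 and rank 91 among embryo peaks, where it spanned chrX:8544469-8545344. It was also the widest, at 792 bp in midline cells and 876 bp in embryos. The whole midline peak lay inside the embryo peak.

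The next shared peak by midline rank was at chrX:8518871-8519285, with a score of 348 and rank 609 in the midline list. Its embryo counterpart at chrX:8518844-8519300 had a score of 675 and rank 571, so it stood at nearly the same place in both lists. The shared peak at chrX:8500234-8500523 had a score of 264 and rank 1192 in the midline list, against a score of 288 and rank 2600 in the embryo list (chrX:8500243-8500571). It was thus placed higher among midline peaks than among embryo peaks.

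Other shared peaks stood lower among midline than among embryo peaks. That at chrX:8570726-8571232 had a score of 209 and rank 1821 in the midline list, against a score of 675 and rank 571 in the embryo list (chrX:8570711-8571195). Another, at chrX:8566215-8566485, had a score of 141 and rank 3257 in the midline list, against a score of 446 and rank 1401 in the embryo list (chrX:8566278-8566541). A further one at chrX:8534640-8535144 had a score of 128 and rank 3629 in the midline list, against a score of 429 and rank 1474 in the embryo list (chrX:8534625-8535143). All 3 were among the 5 highest embryo peaks of the locus, and none of them was among its 5 highest midline peaks, of which 2 were midline-only (below).

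The weakest shared pairs differed most in rank. One, at chrX:8551155-8551424, had a score of 74 and rank 6212 in the midline list, against a score of 224 and rank 3458 in the embryo list (chrX:8551144-8551373). The other, at chrX:8501890-8502239, had a score of 104 and rank 4543 in the midline list, against a score of 75 and rank 9425 in the embryo list (chrX:8502137-8502395), near the end of that list. This last pair overlapped by 103 bp, which is 29.4% of the midline peak and 39.8% of its partner. The other 7 pairs overlapped by at least 76.8% of the midline peak and 78.8% of its partner. Under a reciprocal overlap of 50% that weak pair is therefore the only pair to be lost, which makes 13 midline-only and 5 embryo-only peaks (65.0 and 41.7%, against 48% and 57.4% on the rest of the X).

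In 2 of the 8 pairs (25.0%) the midline peak had the higher place in its list, against 41.9% of 1053 pairs on the rest of the X. The shared peaks of the locus had a median rank of 2539 among midline peaks and 1437.5 among embryo peaks, and both are higher places than on the rest of the X (3943 and 3294). The widths of the paired peaks were close: the median ratio of midline to embryo width was 0.9998, and 4 of 8 midline peaks were narrower than their partner. On the rest of the X the median ratio was 0.759 and 83.0% of midline peaks were narrower. With 8 pairs these shares are coarse.

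**Figure D3:**
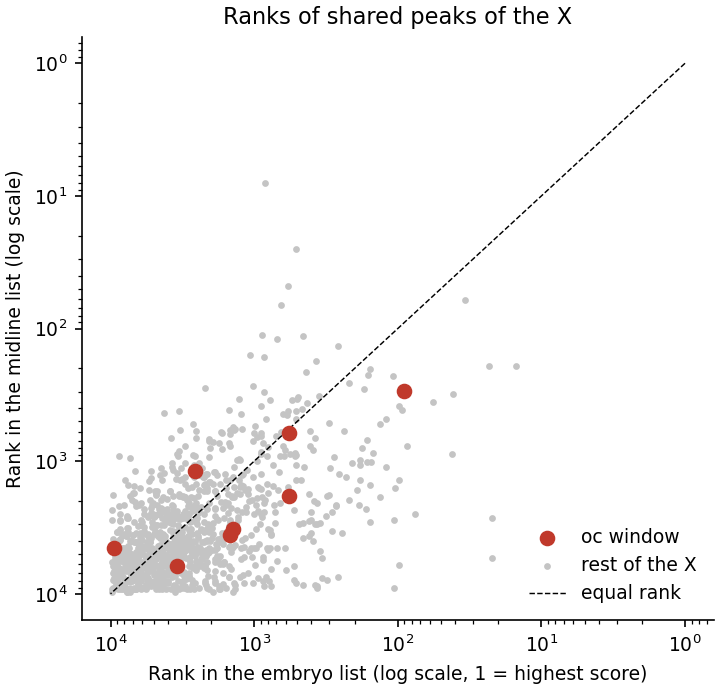
Rank in the midline list (vertical axis, log scale) against rank in the embryo list (horizontal axis, log scale) for pairs of overlapping peaks on the X, with both axes reversed so that the highest score, rank 1, is at the top and on the right. The 8 pairs of the oc window are red, the 1053 pairs of the rest of the X grey, and the dashed line marks equal rank; 2 of the 8 red points lie above the line, where the midline peak has the higher place.

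The 12 midline-only peaks were mostly weak, but 3 of them were high for their class. The widest and highest was at chrX:8530880-8531472, with a width of 593 bp, a score of 242 and rank 1426. Of the 494 midline-only peaks on the rest of the X, 5 scored higher. Its left neighbour at chrX:8530363-8530738, 141 bp away, was 376 bp wide, with a score of 213 and rank 1777, and 9 of the 494 scored higher. The gap between them is shorter than the sheared fragments (500 bp or more), so whether they are separate sites was not determined. The nearest embryo peaks were 2961 and 2444 bp from these midline-only peaks. The 2 were the highest peaks of the locus in sorted midline cells without a counterpart among the deposited embryo peaks.

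These peaks belonged to a run of 5 midline-only peaks at chrX:8528697-8532733 that no deposited embryo peak interrupts. The other members were at chrX:8528697-8528949 (253 bp, score 63, rank 7216), at chrX:8529275-8529504 (230 bp, score 45, rank 9752) and at chrX:8532579-8532733 (155 bp, score 71, rank 6547). All 3 lay in the lower part of the midline list. On the rest of the X, 355 runs of midline-only peaks were found, of which 3 reached 5 peaks and none was longer. The run stood between the embryo-only peak at chrX:8527665-8527918 and the shared peak at chrX:8534625-8535143, which are 6706 bp apart.

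A second run held 4 midline-only peaks at chrX:8503058-8516674. Its highest was at chrX:8503545-8503894 (350 bp, score 105, rank 4487), and 82 of the 494 on the rest of the X scored higher. The others were at chrX:8503058-8503241 (184 bp, score 45, rank 9752), at chrX:8505290-8505543 (254 bp, score 50, rank 8854) and at chrX:8516428-8516674 (247 bp, score 64, rank 7019). The flanking embryo peaks were 16448 bp apart, the widest gap between neighbouring embryo peaks of the locus.

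The remaining 3 midline-only peaks stood singly. The highest of them, at chrX:8567006-8567312, was 307 bp wide, with a score of 186 and rank 2246, and 17 of the 494 on the rest of the X scored higher. It lay 464 bp from a shared embryo peak. That at chrX:8554423-8554746 was 324 bp wide, with a score of 58 and rank 7762, and lay 350 bp from an embryo-only peak, so that here each list had a weak peak of its own a short distance apart. The last, at chrX:8575876-8576074, was 199 bp wide, with a score of 64 and rank 7019, and closed the locus on the right, 4680 bp from the nearest embryo peak.

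All 4 embryo-only peaks were low in their list. The highest was at chrX:8565054-8565440 (387 bp), with a score of 123 and rank 6105, and 359 of the 903 embryo-only peaks on the rest of the X scored higher. Next came the peak at chrX:8527665-8527918 (254 bp), with a score of 90 and rank 8104. The peaks at chrX:8555097-8555306 (210 bp) and chrX:8556206-8556357 (152 bp) had scores of 85 and 71 and ranks of 8544 and 9786. With the highest they formed a run of 3 at chrX:8555097-8565440 that no deposited midline peak interrupts, and 106 runs of at least 3 embryo-only peaks were found on the rest of the X. All 7 embryo peaks of the locus ranked in the upper 5000 were shared. On the rest of the X, 228 of 924 such peaks were embryo-only (24.7%), which the interval of the locus includes (0 of 7, 0 to 41.0%). With both lists limited to the upper 5000, 1 of the 7 was embryo-only (14.3%, interval 0.361 to 57.9%). That interval includes the 43.0% of the rest of the X. All 4 embryo-only peaks lay within 1459 bp of a midline peak, and their median distance of 776 bp compares with 4676 bp for embryo-only peaks on the rest of the X. The window held 20 midline peaks, against 6 in the median tile of the X. Whether the short distance reflects more than this density was not tested. For midline-only peaks the median distance to an embryo peak was 1623.5 bp in the window and 2852.5 bp on the rest of the X.

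**Figure D4:**
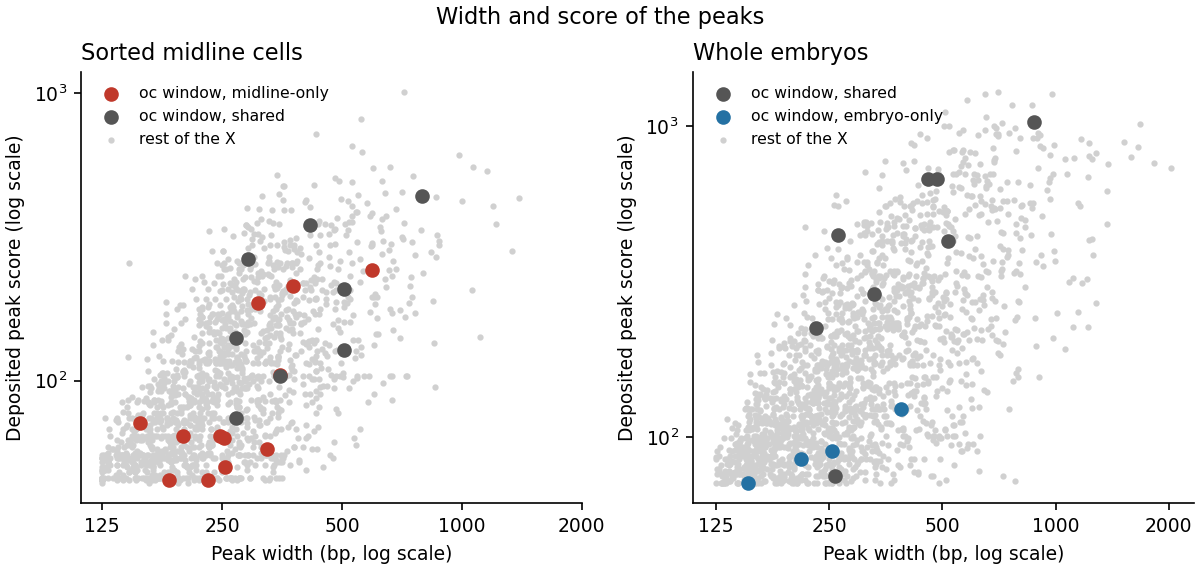
Authors' score (vertical axis, log scale) against width in bp (horizontal axis, log scale) for midline peaks (left) and embryo peaks (right), with the rest of the X in grey. The midline-only peaks of the oc window reach a score of 242, whereas its embryo-only peaks do not exceed 123; a midline-only point (350 bp, score 105) lies under a shared point (350 bp, score 104).

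Taking all peaks of the locus, the midline peaks had a median rank of 4515 (45.2% down the list) and a median width of 298.5 bp, against 4988 (49.9%) and 257 bp on the rest of the X. The embryo peaks had a median rank of 3029 (30.3%) and a median width of 296.5 bp, against 5135 (51.4%) and 290 bp on the rest of the X. Neither difference in rank held throughout. Ranked by width, the embryo peaks stood 57.5% down the list, close to the 58.3% of the rest of the X, and with the window widened by 10000 bp on each side the midline peaks stood 62.1% down the list by score. Midline-only peaks had the same median rank in the window as on the rest of the X, 7019 in each. The peaks also lay closer together in the midline list. Neighbouring midline peaks were a median of 1906 bp apart in the window, against 4367 bp on the rest of the X, while neighbouring embryo peaks were 5799 bp apart in the window, against 4711.5 bp.

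The locus was next set beside 247 other tiles of the same length along the X, on the grid that the window itself fixes. The window held 12 midline-only peaks, more than any other tile, in which the number ran from 0 to 9 with a median of 2. Its 20 midline peaks were reached or passed by 4 of the 247 tiles, and the median tile held 6. Its 12 embryo peaks were reached or passed by 52 tiles, and the median tile held 7. Its 4 embryo-only peaks were reached or passed by 106 tiles. The locus thus held more peaks of both lists than the median tile and, in midline-only peaks, was the richest tile of the X. The window was drawn around a gene with earlier results of these data known, and a grid can divide other clusters. Windows of the same length that start at each of 491 midline-only peaks clear of the locus held at most 11 midline-only peaks, at chrX:4448252-4538251.

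This place holds for the X and for all peaks, not for the genome or for strong peaks. On the autosomes, 18 of 1070 tiles held at least 12 midline-only peaks, and the highest number was 18. Among the midline peaks ranked in the upper 5000, the locus had 4 midline-only peaks, and 2 other tiles of the X had at least as many. Tiles with many midline peaks varied in their midline-only share elsewhere on the X. In the 14 other tiles with at least 15 midline peaks, a limit chosen after the values were seen, 69 of 254 midline peaks were midline-only (27.2%), and the share ranged from 5.56 to 46.7% per tile. Just below that limit the spread was wider. Midline-only peaks were 9 of 14 at chrX:4440001-4530000 and 8 of 13 at both chrX:5880001-5970000 and chrX:17130001-17220000. They were 1 of 13 at chrX:12540001-12630000.

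**Figure D5:**
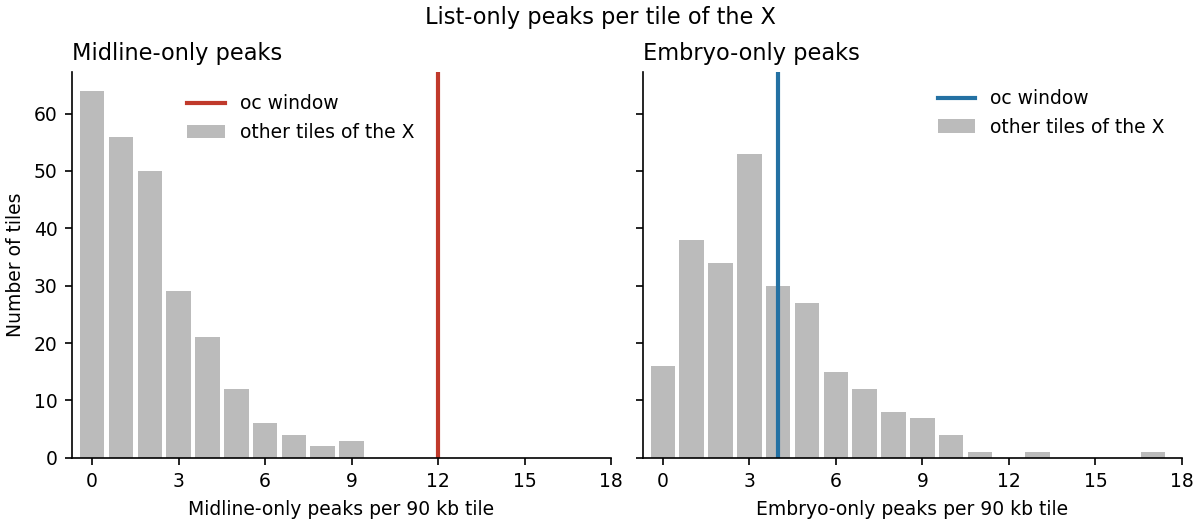
Number of the 247 other 90 kb tiles of the X (vertical axis) by their count of midline-only peaks (left) and embryo-only peaks (right). The line marks the oc window, which has 12 midline-only peaks, above the highest count of 9 in the other tiles, and 4 embryo-only peaks, within the range of the other tiles.

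The tiles most like the locus were picked by their numbers of midline-only, shared and embryo-only peaks. As no other tile held 12 midline-only peaks, all of them necessarily had fewer. The nearest, at chrX:4260001-4350000, held 7 midline-only, 8 shared midline and 5 embryo-only peaks. The next were chrX:17670001-17760000, with 6, 8 and 5 peaks, and chrX:3000001-3090000, with 5, 9 and 3. The same excess of midline over embryo peaks as at the locus, 8, was found in 1 other tile, chrX:480001-570000, with 20 midline and 12 embryo peaks, of which 9 were midline-only and 1 embryo-only.

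The numbers in the authors' peak names run in order along the X and skip values, so the deposited lists appear to be parts of longer ones. This holds if numbering came before the selection of peaks, on which the files are silent. On that reading the locus had 25 midline peaks, of which 5 were left out, and 16 embryo peaks, of which 4 were left out, between its first and last deposited peak. More midline than embryo peaks were therefore called over this span in the longer lists as well. The kept share was 80.0% of midline and 75.0% of embryo peaks, against 67.7 and 67.3% on the rest of the X. The span begins and ends on a kept peak, which raises its shares. In each list, 1 peak was left out between the first and the kept peak before it. After the last embryo peak, 2 were left out. Their positions are unknown, so the kept shares over the whole window may be lower. Of the 12 midline-only peaks, 2 (at chrX:8554423-8554746 and chrX:8567006-8567312) lay between consecutively numbered embryo peaks, so that no lower embryo peak had been called there. That is 16.7% of them, against 28.5% of the midline-only peaks on the rest of the X. The run of 5 lay where 2 embryo peaks had been left out at unknown positions, so whether its highest peaks had a weak embryo counterpart cannot be said. The run of 4 midline-only peaks likewise lay where 2 embryo peaks had been left out. The run of 3 embryo-only peaks lay where 2 midline peaks had been left out. Of the 4 embryo-only peaks, the peak at chrX:8527665-8527918 lay between consecutively numbered midline peaks (25.0%, against 33.8% on the rest of the X). Both shares were below those of the rest of the X, but with 12 and 4 peaks they are coarse. Over the whole lists the shares were 19.8% of midline-only and 30.5% of embryo-only peaks.

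The gene table supplied with the data is on Release 6 of the genome, not on dm3, and served only for names. In it the genes next to oc towards lower coordinates are a gene for a subunit of chromatin assembly factor, then Crag, CG12659, CG12081 and CG12065. Towards higher coordinates they are Rubicon, CAH3, Ppt1, Ogg1, which encodes a DNA repair glycosylase, and CG11294. All of them and oc itself are protein-coding. Which peaks lie in the promoter, introns or flanks of oc, or belong to a neighbouring gene, was not determined, and the sequences of the peaks were not analysed here.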

How the data were processed

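FAIRE-seq libraries of sorted midline cells (2) and whole embryos (2) and a genomic input (1) were processed by the authors. Per the submitters' processing notes, CASAVA 1.8.2, Bowtie2, SAMtools, bedtools and MACS2 were used with dm3; neither their roles nor their settings are given in the sources used. Per the peak and file names, peaks were called on pooled replicates and the 10000 highest of each group were deposited. Scores were deposited as whole numbers on a scale that is not stated. Starts were converted to 1-based positions.

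Ranks gave tied scores the highest place. Pairs were formed by the largest overlap. Shares carry exact Clopper-Pearson 95% intervals. Full values were given for every list-only peak and for the 5 highest peaks of each list, with the remaining shared peaks added after their values were seen. The 3 most similar tiles had the smallest summed difference in class counts, with ties broken by position, and 5 neighbouring genes were named on each side. The planned count of motifs needs sequence and was not run. The window, members and lists were chosen with earlier results of these data known. The overlap and window counts were tested on simulated data. Alternatives changed the overlap rule, peak width, list length and window. Python 3.11.15, numpy 2.4.6, scipy 1.17.1, pandas 2.3.3 and matplotlib 3.10.9 were used.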

Additional observations from a re-analysis of the deposited data

How the results depend on the processing

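Of the settings tried for overlap, width, list length, ranking and window, 35 left the value within its 95% interval or, for a count of peaks, within 1.5 times. The interval of a median was that of its order statistics. The 3 that did not came from keeping only the peaks of a list ranked in the upper 5000 and setting them against the whole other list, which by its construction removes weak peaks. It left 11 midline peaks and 7 embryo peaks, and an embryo-only share of 0% (0 of 7, interval 0 to 41.0%, against 24.7% on the rest of the X). The midline-only share was then 36.4% (4 of 11, interval 10.9 to 69.2%), against 14.0% on the rest of the X. With both lists limited in this way, chosen after the data were seen, 5 of 11 midline peaks were midline-only (45.5%, interval 16.7 to 76.6%). Of the 7 embryo peaks, 1 was embryo-only (14.3%, interval 0.361 to 57.9%). Both intervals include the values of the rest of the X (30.0 and 43.0%). Over all alternatives the midline-only share ranged from 36.4 to 65.0%, and the embryo-only share from 0 to 41.7%. Staying within an interval is a weak criterion here, as the intervals are wide (36.1 to 80.9% for the midline-only share). Taking peaks by any overlap with the window kept the same 20 midline and 12 embryo peaks, so this setting could not move a value. Of the alternatives added after the data were seen, windows free of the grid raised the highest midline-only count elsewhere on the X to 11 and tiles of the autosomes gave 18, against 9 on the grid, and tiles with at least 15 midline peaks lowered the midline-only share elsewhere on the X to 27.2%. No paired analysis was possible because each list was called on pooled replicates, which also means that none could be omitted in turn. With the depth unknown, a region without a peak may be closed or undetected.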
